A study of Homo sapiens with 2 samples.

Results

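The genes described here encode respiratory complexes II to V of the mitochondrial inner membrane. They were taken by symbol: every gene of the array annotation that begins with SDHA, SDHB, SDHC, SDHD, UQCR, ATP5, or COX and a digit, without pseudogenes. The rule found 61 genes of 19775, read by 119 probe sets that were each paired with exactly 1 of them. Besides subunits it takes in assembly factors (SDHAF1 to SDHAF4, COX10 and others), the 3 subunits COX1, COX2 and COX3 that mitochondrial DNA encodes, and the non-coding divergent transcript COX10-DT. COX1 and COX2 are here the cytochrome oxidase genes and not the cyclooxygenases. No probe set was paired with SDHB, UQCRFS1 or ATP5MGL alone, and UQCRH and UQCRHL share theirs, so these genes were not analysed here.

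The samples were KYSE170-luc cells transfected with a SOX17 expression plasmid and the same cells transfected with an empty vector, both harvested at 12 h, with 1 array each. KYSE170-luc is a luciferase-marked line of human esophageal squamous carcinoma, and SOX17 is a transcription factor of the SOX family. The luciferase line and the transfection were common to both samples. With 1 array per group there was no replicate, no p-value was computed, and every value is a difference between these 2 arrays. The labels name no step that separates cells that took up a plasmid from the others, and in such bulk RNA fewer expressing cells and less RNA per cell cannot be told apart.

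Complex II, succinate dehydrogenase, passes electrons from succinate to ubiquinone and is also an enzyme of the citrate cycle. Complex III hands them from ubiquinol to cytochrome c, and complex IV, cytochrome c oxidase, hands them on to oxygen. Both pump protons, and complex V, the ATP synthase, lets protons flow back to make ATP. Apart from a few subunits made from mitochondrial DNA, all their proteins are encoded in the nucleus, so complexes III, IV and V need gene expression from both genomes.

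Where several probe sets read 1 gene, the brightest over both arrays (mean log2 intensity) stands for it, and the gene was called measured where that probe set reached an intensity of 95, the floor, on both arrays. Of the 61 genes 54 were measured. Each ratio is the log2 intensity on the SOX17 array minus that on the empty vector array, so a value above 0 means brighter on the SOX17 array. Of the 19775 genes on the arrays 10034 were measured, with a median ratio of 0.03. The poly-A control transcripts, which are not RNA of the cells, had a median ratio of 0.57 and were above 0 on 24 of 24 probe sets. Their part in the results was not tested. Of the squamous epithelial markers 9 of 9 with a named probe set were measured. Of the markers of other cell types 1 of 7 fibroblast genes (COL1A1), 0 of 5 endothelial genes and 1 of 5 leukocyte genes (CD79A) reached the floor. The summed intensity of the fibroblast list was 1005 on the SOX17 array and 945.5 on the empty vector array, that of the endothelial list 134.6 and 184.0 in the same order, and that of the leukocyte list 299.3 and 241.2.

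Genes of complexes II to V were slightly and rather evenly brighter on the SOX17 array. Of the 54 measured genes 46 (85.2%) had a ratio above 0, where 54.6% of all measured genes did. The median ratio was 0.14, a 1.10-fold difference, and the quartiles were 0.09 and 0.23. None of the 54 was 1.5-fold different: 0 were at least 1.5-fold higher, against 3.78% of all measured genes, and 0 at least 1.5-fold lower, against 3.19%. Most genes with differences of that size lay in the lowest level tertile. In the highest level tertile, in which 44 of the 54 genes lay, 0.419% of all genes were higher by that size and 1.17% lower. The highest ratio was 0.45 (COX14) and the lowest -0.46 (COX15). The SD of the ratios was 0.18 over the 54 genes and 0.24 over the 3345 genes of the highest level tertile, a comparison not matched for level within it. Cytosolic ribosomal proteins had closer quartiles, 0.06 and 0.17. Those of complex I genes (0.10 and 0.31) and of mitochondrial ribosomal proteins (0.06 and 0.30) were wider. Without the floor, 50 of all 61 genes (82.0%) were above 0, against 56.4% of all 19775 genes.

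**Figure D1:**
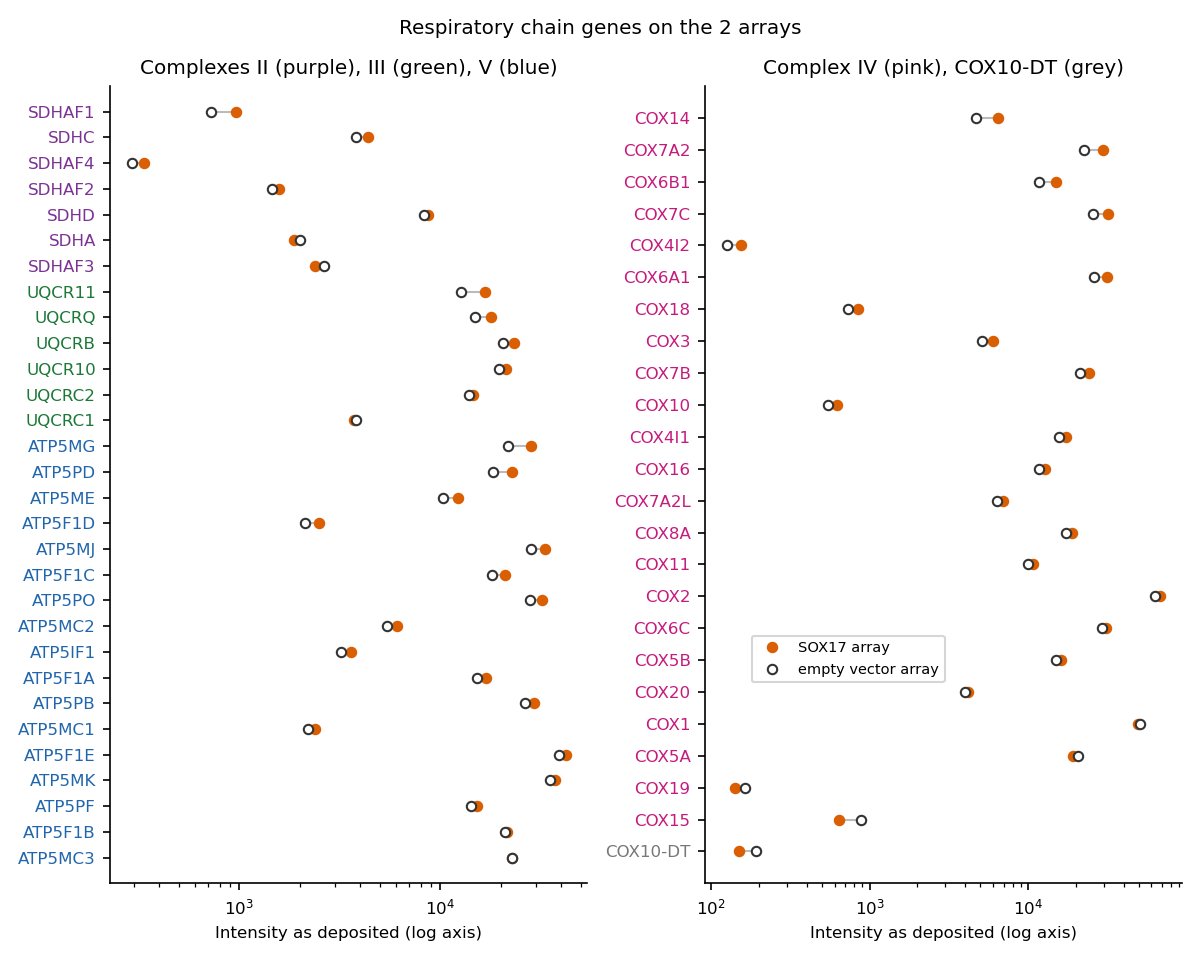
Intensity as deposited (log axis) of the representative probe set of each of the 54 measured genes on the SOX17 array (filled) and the empty vector array (open). In 46 genes the SOX17 point lies to the right, by at most 1.36-fold.

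Most single ratios were no larger than the spread between probe sets of 1 gene. The spread between probe sets of the same gene gave an SD of 1 ratio of 0.24 for genes of the highest level tertile, 0.31 in the middle tertile and 0.37 in the lowest. For the 25 genes of complexes II to V with several measured probe sets it was 0.22. Only 12 of the 54 genes lay farther from 0 than 1 SD at their level, against 30.7% of all measured genes. Of the 12, 11 were above 0, so 11 of 54 genes lay above 1 SD, against 16.2% of all measured genes. The tertile is that of the brightest probe set, so these SDs also take in dimmer measured probe sets of the same gene. They hold error within the arrays together with any difference in what the probe sets of a gene detect. They are thus not the error of the brightest probe set alone. They leave out the spread between cultures, which 1 array per group cannot give. Over single probe sets the direction was the same: 81 of 97 measured probe sets (83.5%) were above 0, against 51.1% of the 17364 measured probe sets of all genes. Of the 25 genes with several measured probe sets, 16 were above 0 on all of them, 9 were mixed and 0 were below 0 on all. The same counts over all 4574 measured genes with several measured probe sets are not given here, so these have no background beside them.

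**Figure D2:**
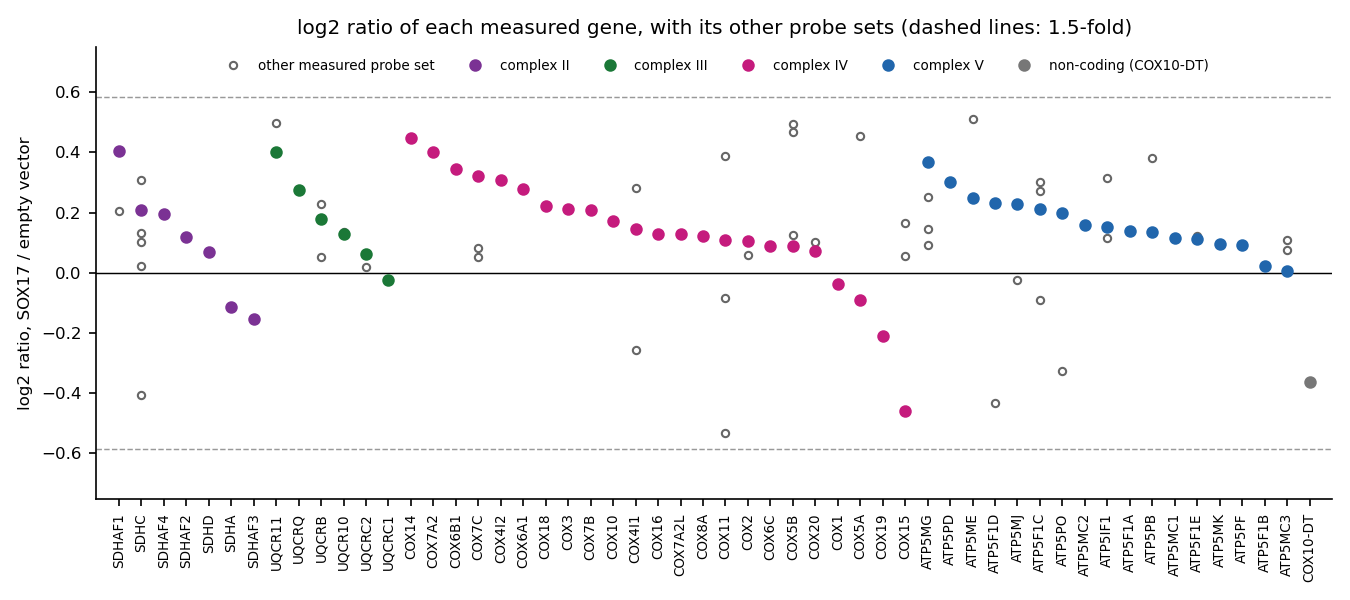
log2 ratio of SOX17 over empty vector for each measured gene (filled, coloured by complex) and for its other measured probe sets (open). No gene or probe set reaches the dashed lines at 1.5-fold.

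The promoters of the gene with the highest ratio of each complex, and of the gene with the lowest ratio of all, show what regulatory sequence lies at either end of the range. They are RefSeq sequences of GRCh38.p14 from 250 bases before to 50 bases after the start of the gene, printed 5′ to 3′ in the direction of the gene. Capitals mark CCGGAAG, the core motif of ETS factors such as the respiratory gene activator GABPA, on either strand.
SDHAF1, chr19:35994938-35995237, plus strand: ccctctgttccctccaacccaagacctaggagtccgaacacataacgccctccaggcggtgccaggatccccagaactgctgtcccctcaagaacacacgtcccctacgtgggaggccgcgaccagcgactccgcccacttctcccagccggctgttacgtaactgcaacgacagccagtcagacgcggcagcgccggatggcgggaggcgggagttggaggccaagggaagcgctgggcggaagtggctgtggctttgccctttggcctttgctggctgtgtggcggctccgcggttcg
UQCR11, chr19:1605413-1605712, minus strand: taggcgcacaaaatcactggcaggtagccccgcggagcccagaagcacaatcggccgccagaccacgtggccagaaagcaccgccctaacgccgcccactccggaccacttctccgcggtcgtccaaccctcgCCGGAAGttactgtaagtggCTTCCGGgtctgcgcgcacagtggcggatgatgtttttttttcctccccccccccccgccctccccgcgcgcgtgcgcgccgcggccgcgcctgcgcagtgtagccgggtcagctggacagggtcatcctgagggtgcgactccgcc
COX14, chr12:50111986-50112285, plus strand: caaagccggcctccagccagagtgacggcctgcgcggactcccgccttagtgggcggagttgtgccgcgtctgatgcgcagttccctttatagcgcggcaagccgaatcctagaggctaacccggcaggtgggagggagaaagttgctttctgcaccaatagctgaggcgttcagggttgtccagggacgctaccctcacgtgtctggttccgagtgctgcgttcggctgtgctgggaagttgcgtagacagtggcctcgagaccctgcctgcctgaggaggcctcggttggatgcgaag
ATP5MG, chr11:118401356-118401655, plus strand: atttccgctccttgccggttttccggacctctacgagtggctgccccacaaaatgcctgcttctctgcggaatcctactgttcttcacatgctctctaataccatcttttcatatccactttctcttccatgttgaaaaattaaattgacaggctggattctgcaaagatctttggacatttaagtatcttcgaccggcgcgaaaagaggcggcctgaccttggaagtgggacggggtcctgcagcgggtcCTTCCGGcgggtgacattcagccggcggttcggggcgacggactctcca
COX15, chr10:99732078-99732377, minus strand: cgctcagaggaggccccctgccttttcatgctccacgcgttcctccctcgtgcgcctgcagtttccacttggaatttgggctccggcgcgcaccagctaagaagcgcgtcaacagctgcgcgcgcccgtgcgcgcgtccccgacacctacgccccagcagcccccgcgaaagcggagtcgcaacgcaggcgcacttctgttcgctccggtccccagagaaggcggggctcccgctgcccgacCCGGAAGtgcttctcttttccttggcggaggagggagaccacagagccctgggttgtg
UQCR11 held 2 ETS matches, ATP5MG and COX15 held 1 each, and SDHAF1 and COX14 held none, so matches stood at both ends of the range. The low end is COX15 alone, whose other measured probe sets had ratios of 0.06 and 0.17. GCGCATG, a core of the motif of the activator NRF1, was searched on both strands too and stood in none of the 5. Promoters were matched for 48 of the 61 genes. The ETS core stood in 21 of these genes (43.8%), against 12.2% of all 27305 genes with a promoter and 24.1% of measured genes with one. The NRF1 core stood in 10 (20.8%), against 5.30% and 9.29%. Both cores stood in 7 genes and neither in 24, and a run of bases that matches one core is no match to the other. The 20 measured genes with the ETS core had a median ratio of 0.13 and the 23 without it 0.15. For the NRF1 core the medians were 0.16 in 9 genes with it and 0.14 in 34 without it. A longer form of the NRF1 motif was searched first and replaced by this core after the results of both had been seen. Its values are not given here. With it, the medians of genes with and without a match lay farther apart. A match is only a run of letters in this window, and no test of these medians was made.

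Complex II had the lowest share of genes above 0, 5 of its 7 measured genes, with a median of 0.12. The flavoprotein subunit SDHA, which oxidises succinate, read 1862 on the SOX17 array and 2013 on the empty vector array, a ratio of -0.11. SDHC and SDHD anchor the enzyme in the membrane and bind ubiquinone. SDHC read 4379 on the SOX17 array and 3790 on the empty vector array (0.21), but its 6 measured probe sets ran from -0.41 to 0.31. SDHD read 8712 and 8314 in the same order, a ratio of 0.07. The assembly factor SDHAF1, which helps to place iron-sulphur clusters in SDHB, had the highest ratio of the complex, with 961.2 on the SOX17 array and 726.1 on the empty vector array (0.40). Its other probe set had a ratio of 0.20, so both were above 0. SDHAF3, which acts in the same step, read 2370 on the SOX17 array and 2637 on the empty vector array (-0.15). SDHAF2, which attaches the flavin to SDHA, had a ratio of 0.12, and SDHAF4, which binds the flavinated SDHA, of 0.19.

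In complex III 5 of the 6 measured subunits were above 0, with a median of 0.15. The large core subunits, which face the matrix, differed least: UQCRC1 read 3734 on the SOX17 array and 3796 on the empty vector array (-0.02), and UQCRC2 read 14482 and 13865 in the same order (0.06). The 4 measured small subunits were all above 0. UQCR11 read 16771 on the SOX17 array and 12703 on the empty vector array (0.40), and its other probe set lay at 0.50. UQCRQ, a small subunit beside cytochrome b, read 17952 on the SOX17 array and 14833 on the empty vector array (0.28). UQCRB read 23237 on the SOX17 array and 20526 on the empty vector array (0.18), with 3 probe sets between 0.05 and 0.23. UQCR10 had a ratio of 0.13 on both of its probe sets. CYC1, the cytochrome c1 subunit of this complex, which the symbol rule does not take in, read 13337 on the SOX17 array and 10617 on the empty vector array (0.33). Its electron acceptor cytochrome c (CYCS) read 53296 and 53928 in the same order, a ratio of -0.02.

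Complex IV had 29 genes, of which 23 were measured and 19 of these were above 0 (median 0.13). Its catalytic core is made from mitochondrial DNA. COX1, which holds the heme and copper site where oxygen is reduced, read 49703 on the SOX17 array and 51059 on the empty vector array (-0.04). COX2, which receives electrons from cytochrome c, read 68275 on the SOX17 array and 63495 on the empty vector array (0.10). COX3 read 5968 and 5148 in the same order (0.21). The median of these 3 mitochondrial transcripts was 0.10 in the values as deposited, and it depended on the scaling. With quantile normalization COX1 lay at -0.17, COX2 at 0 and COX3 at 0.23. With loess the ratios were -0.14, -0.01 and 0.20 in the same order.

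Of the 11 nuclear subunits of complex IV in their general forms 10 were above 0, with a median of 0.14. COX7A2 read 29883 on the SOX17 array and 22654 on the empty vector array (0.40), COX6B1, which bridges the dimer, read 14943 and 11765 in the same order (0.35), and COX7C read 32136 and 25723 (0.32). The other probe sets of COX7C were closer to 0, down to 0.05. COX6A1 had a ratio of 0.28, COX7B of 0.21 and COX4I1, the ATP-binding regulatory subunit, of 0.14 with 3 probe sets from -0.26 to 0.28. COX5B lay at 0.09 on its representative probe set, yet its 4 probe sets ran up to 0.49. COX8A had 0.12, COX6C 0.09 and COX7A2L, a factor that joins complexes III and IV in supercomplexes, 0.13. COX5A was the exception, with 19322 on the SOX17 array and 20550 on the empty vector array (-0.09), and its other probe set lay at 0.45. NDUFA4, a complex IV subunit that was first counted to complex I and lies outside the symbol rule, had a ratio of 0.05.

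The tissue-restricted forms of complex IV subunits were nearly all dim. Of 6 such genes 1 was measured, COX4I2, the hypoxia-linked form of subunit 4, with 155.1 on the SOX17 array and 125.4 on the empty vector array (0.31), near the floor. The muscle forms COX6A2 (85.4 on the SOX17 array and 91.4 on the empty vector array) and COX7A1 (4.1 and 8.4 in the same order) lay below the floor on both. So did COX7B2 (50 and 3.1) and COX8C (12.1 and 4.4). The testis form COX6B2 was the only gene of all 61 whose representative probe set crossed the floor between the arrays, with 142.3 on the SOX17 array and 67.3 on the empty vector array, at least 1.498-fold higher when the second value is set to the floor of 95. For genes below the floor on both arrays no fold is given.

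Factors that build complex IV had 8 measured genes of 9, 6 of them above 0, with a median of 0.12. COX14, which stabilises newly made COX1, had the highest ratio of all 54 genes, with 6423 on the SOX17 array and 4708 on the empty vector array (0.45) on its 1 probe set. COX15, which makes heme A from the product of COX10, had the lowest, with 644.1 on the SOX17 array and 885.5 on the empty vector array (-0.46). Its other 2 measured probe sets lay above 0, up to 0.17, and the mean over the 3 was -0.08. COX10 itself, which makes heme O, read 617.7 on the SOX17 array and 548.2 on the empty vector array (0.17). COX10-DT, transcribed away from COX10, read 149.0 and 191.7 in the same order (-0.36), near the floor. COX11, a copper donor to COX1, had a ratio of 0.11 with 4 probe sets from -0.53 to 0.39. The membrane insertase COX18 had 0.22, COX16 0.13, COX20, a chaperone of COX2, 0.07, and COX19 -0.21 near the floor. The copper chaperone COX17 was below the floor on both arrays on its 1 probe set named to 1 gene, with 62.7 on the SOX17 array and 33.9 on the empty vector array.

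In complex V 17 of 17 measured genes had a ratio above 0 in the values as deposited, with a median of 0.15. This count depended on the scaling: it was 15 of 17 with median centring or loess, where ATP5F1B and ATP5MC3 fell below 0, and 14 of 17 with quantile normalization, where ATP5MK did so too. It was also 15 of 17 with the mean over probe sets, where ATP5F1D and ATP5PO lay below 0. In the F1 sector, which makes ATP, the catalytic beta subunit ATP5F1B read 21408 on the SOX17 array and 21061 on the empty vector array (0.02), and the alpha subunit ATP5F1A read 16870 and 15309 in the same order (0.14). The central stalk subunit ATP5F1C had a ratio of 0.21, with 4 probe sets from -0.09 to 0.30. ATP5F1D, also of the central stalk, read 2502 on the SOX17 array and 2130 on the empty vector array (0.23), but its other probe set lay at -0.43. ATP5F1E had 0.11. ATP5IF1, which inhibits ATP hydrolysis when the membrane potential is lost, read 3577 on the SOX17 array and 3222 on the empty vector array (0.15) and was above 0 on all 3 probe sets.

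The c ring, the rotor that protons turn, is encoded by 3 genes for the same mature protein. ATP5MC1 read 2391 on the SOX17 array and 2208 on the empty vector array (0.12). ATP5MC2 read 6058 on the SOX17 array and 5422 on the empty vector array (0.16). ATP5MC3 read 22785 and 22713 in the same order, a ratio of 0.005, and its 3 probe sets reached 0.11. The 3 c ring genes thus lay close together and within the SD of 1 ratio of 0.

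The peripheral stalk and membrane subunits of complex V had the highest median of its parts, 0.21 over 8 measured genes of 9. ATP5MG, the g subunit, which takes part in the dimer of the enzyme, read 28173 on the SOX17 array and 21851 on the empty vector array (0.37), with 4 probe sets between 0.09 and 0.37. ATP5PD, of the peripheral stalk, read 22657 on the SOX17 array and 18378 on the empty vector array (0.30). Its other probe set had the same ratio, but it read 139.1 and 112.8 in the same order, near the floor. ATP5ME, the e subunit, read 12318 on the SOX17 array and 10358 on the empty vector array (0.25), and its other probe set lay at 0.51. ATP5PO, which ties the peripheral stalk to F1, had a ratio of 0.20, while its other probe set lay at -0.33, and ATP5MJ had 0.23 and -0.02 on its 2 probe sets. ATP5PB had 0.14, ATP5MK 0.10 and ATP5PF 0.09. ATP5MF was below the floor on both arrays on its 1 probe set named to 1 gene, with 8.2 on the SOX17 array and 31.8 on the empty vector array.

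At 1.2-fold, a size chosen after the data had been seen, 11 of the 54 genes were higher on the SOX17 array, against 19.8% of all measured genes. They were SDHAF1, UQCRQ, UQCR11, COX14, COX7A2, COX6B1, COX7C, COX4I2, COX6A1, ATP5MG and ATP5PD. Lower by that size were COX15 and COX10-DT, 2 of 54, against 17.1%. Against all measured genes the count of higher genes was thus near the background. In the highest level tertile the share of higher genes lay above its background, with 9 of 44 against 10.8% of all genes of that tertile. Lower there were 0 of 44, against 14%. A size of 1.25-fold had been counted first and was replaced by 1.2-fold after both had been seen. At 1.25-fold 6 of the 54 genes were higher, against 15% of all measured genes, and 2 lower, against 13%. In the highest level tertile it was 5 of 44 higher, against 6.73%, and 0 lower, against 9.45%.

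**Figure D3:**
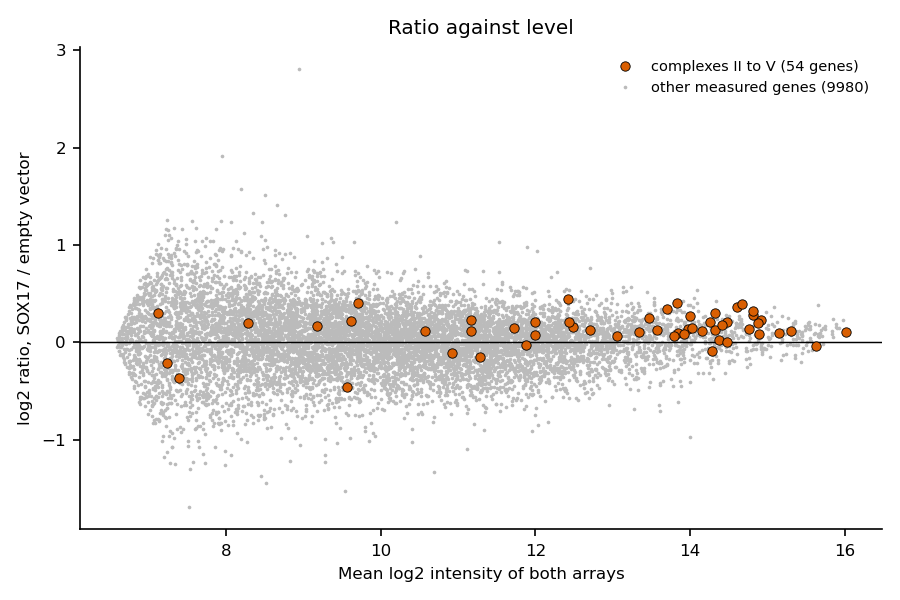
log2 ratio of SOX17 over empty vector against the mean log2 intensity of both arrays for 54 genes of complexes II to V and 9980 other measured genes. The ratios of other genes spread more at low level, and most genes of complexes II to V sit at high level, close above 0.

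Of all measured genes 57.0% were above 0 in the lowest level tertile, 53.2% in the middle one and 53.5% in the highest. Of the genes of complexes II to V 2 of 4 were above 0 in the lowest tertile and 4 of 6 in the middle one. In the highest level tertile 40 of 44 genes of complexes II to V (90.9%) were above 0, against those 53.5% of 3345 genes, and the medians were 0.14 and 0.02. Within that tertile short genes had higher ratios than long ones on these arrays: 66.8% of all genes in the shortest tertile of gene span were above 0, 55.4% in the middle tertile and 38.2% in the longest. Of the 44 genes 34 belong to the shortest tertile, 8 to the middle one and 2 to the longest. Among genes of the shortest tertile 32 of 34 genes of complexes II to V (94.1%) were above 0, with a median of 0.15, against a median of 0.08 for all 1115 genes of that class. In the middle tertile 7 of 8 were above 0, with a median of 0.13 against 0.03. How far gene span or the length of the RNA sets these ratios was not tested.

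**Figure D4:**
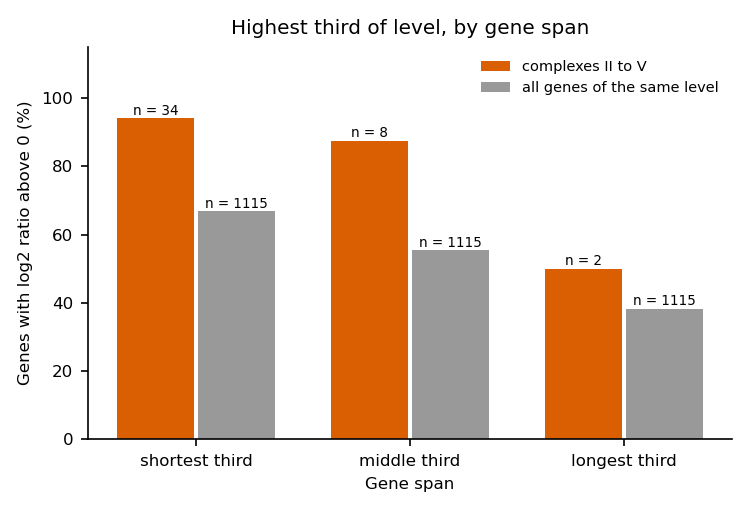
Share of genes with a log2 ratio above 0 among genes of the highest level tertile, by tertile of gene span, for complexes II to V (left bars) and all genes of that level (right bars). The share is lower for long than for short genes in both, with only 2 genes of complexes II to V among the longest, and is 94.1% against 66.8% among the shortest.

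Genes that work with these complexes were read from lists by function. Of 22 measured complex IV assembly factors outside the symbol rule 19 were above 0 (86.4%, against 54.6% of all measured genes), with a median of 0.22. At 1.5-fold 1 was higher, against 3.78% of all measured genes, and 0 lower, against 3.19%, so the number of larger differences was near the background. SMIM20, a chaperone of newly made COX1, read 2006 on the SOX17 array and 1226 on the empty vector array (0.71). COA1 had a ratio of 0.56, though its 3 probe sets ran from -0.93, and CMC1, a partner of COX14, had 0.53. Of 14 measured assembly factors of complexes III and V 10 were above 0 (71.4%), with a median of 0.13. At 1.5-fold 2 were higher and 0 lower, against the same 3.78% and 3.19% of all measured genes. ATPAF2, a chaperone of the F1 alpha subunit, read 209.0 on the SOX17 array and 107.4 on the empty vector array (0.96), the second value being near the floor. UQCC5 read 1189 and 689.5 in the same order (0.79), and UQCC3 had 0.42.

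Other mitochondrial genes did not all have raised medians. Citrate cycle enzymes other than complex II had 5 of 11 measured genes above 0 and a median of -0.006. The extremes were SUCLA2 at -0.26, OGDH at 0.23 with its other probe set at -0.07, and DLST at -0.21. Regulators of mitochondrial biogenesis had 7 of 13 above 0 and a median of 0.04. TFAM, which packs and transcribes mitochondrial DNA, read 4497 on the SOX17 array and 5746 on the empty vector array (-0.35), with 3 probe sets from -0.69 to -0.05. The coactivator PPARGC1B had -0.32 and PPRC1 -0.25. These regulators were named because their absolute ratios were the largest among the measured genes of the list. The activators NRF1 and GABPA had ratios of 0.23 and 0.16, while their other probe sets lay at -1.11 and -0.86.

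The direction seen in complexes II to V was shared by other gene families of the mitochondrion and by ribosomal proteins. Complex I genes (NDUF) had 36 of 41 measured genes above 0 (87.8%) and a median of 0.19. Mitochondrial ribosomal proteins had 67 of 76 above 0 (88.2%) and a median of 0.15, and cytosolic ribosomal proteins 51 of 57 (89.5%) and a median of 0.11. The share for complexes II to V, 85.2%, lay below all 3, so the direction is not particular to them. No test of a difference between these families was made, since 1 array per group gives none.

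**Figure D5:**
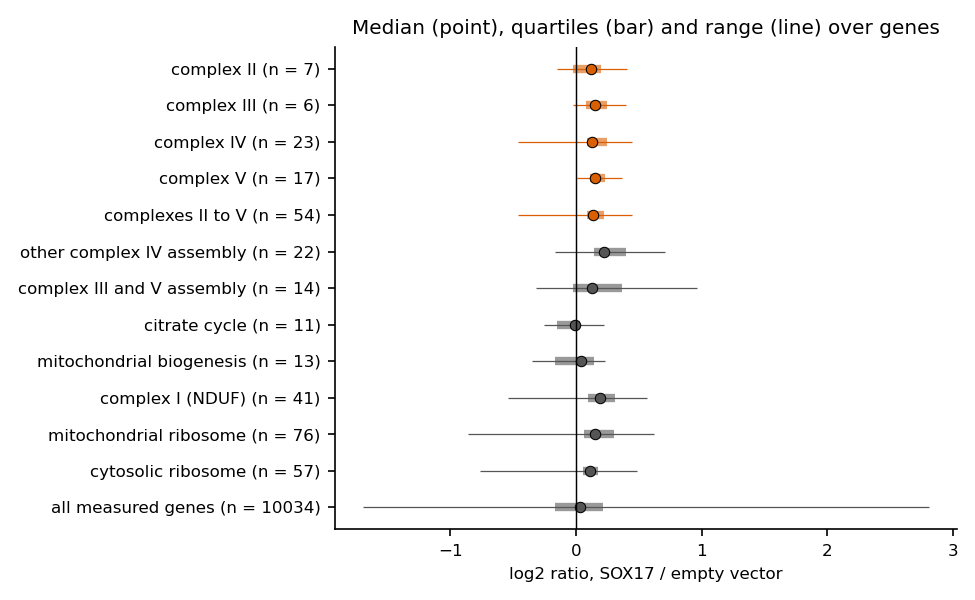
Median (point), quartiles (bar) and range (line) of the log2 ratio of SOX17 over empty vector over the measured genes of each group, with complexes II to V, singly and together, in orange, related mitochondrial and ribosomal groups in grey, and all measured genes last. The 4 complexes have medians of 0.12 to 0.15, while citrate cycle enzymes lie at -0.006.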

How the data were processed

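Values were deposited as linear intensities, 1 for each probe set on each array. GCOS is the tool named in the submitters' processing notes, and its version, algorithm and detection calls are not given in the sources used here. Leaving out the lowest and the highest 2% of values, each array had a mean of about 499, so the values look scaled to a common mean, and they were used as deposited. Of 54675 probe sets 41091 had 1 gene in the platform annotation, and only these were used for genes. The symbols of all 61 genes were found in the RefSeq table of GRCh38.p14, which also gave gene span and promoters.

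All values of the 2 arrays were pooled, and their 60th percentile is the floor. Level tertiles were cut over the 10034 measured genes, and span tertiles within the highest level tertile. The SD of 1 log2 ratio is the root of the mean variance between measured probe sets of a gene. With 1 array per group genes were counted by size, and precision is limited by the number of arrays.

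All 61 genes are accounted for. Intensities were to be given for the 4 genes of each complex with the largest absolute ratio, the c ring, genes below the floor, and general and tissue-restricted forms, and beyond the rule for CYC1, NDUFA4, CYCS and up to 3 genes of each list. For some of these, among them SDHAF4, UQCR10, COX4I1, COX6A1 and NDUFA4, only the ratio is given. Intensities of other genes were added after their values were seen. The genes, lists and alternatives were chosen with earlier results of these data known. Alternatives were median centring, quantile normalization, loess (span 0.4), no floor or one at the 50th or 75th percentile, the mean over probe sets, leaving out probe sets ending in _x_at or _s_at, and 2-fold. Scripts used Python 3.11.15, numpy 2.4.6, pandas 2.3.3 and statsmodels 0.14.6, and were tested on simulated data.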

Additional observations from a re-analysis of the deposited data

How the results depend on the processing

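The median ratio of complexes II to V ranged from 0.11 to 0.14 over all alternatives and stayed above 0, as did that of each complex. Complex V ranged from 0.10 (with _x_at and _s_at probe sets dropped) to 0.15. The share of genes above 0 ranged from 77.8% (quantile normalization, 42 of 54) to 88.0% (floor at the 75th percentile, 44 of 50). The scalings moved the median of all measured genes by at most 0.03. The counts at 1.5-fold, 0 higher and 0 lower, became 1 higher with a floor at the 50th percentile, 4 higher and 2 lower with no floor, which lets in dim probe sets, 11 higher and 2 lower at 1.2-fold, and 6 higher and 2 lower at 1.25-fold, both sizes added after the data had been seen. Of 416 single-gene values under alternatives 406 stayed within 1 SD of a ratio. The 10 others came from taking the mean over probe sets (4) or dropping every probe set with the suffix _x_at or _s_at (6). The sign turned in 4 and 5 genes under these settings, and in 2 or 3 genes under each scaling. Of the 54 representative probe sets 8 end in _x_at and 22 in _s_at. Without them 33 of 42 genes (78.6%) were above 0, against 51.3% of all genes. COX4I1 then had a ratio of -0.26 and COX5A of 0.45. No paired analysis was possible because each group has 1 array. The number of arrays limits every value. Since the arrays share a common mean, each ratio is relative to it, and a shift of the whole transcriptome could not be seen in these ratios. The median ratio of the poly-A controls, 0.57, lay above the highest ratio of the 54 genes, 0.45. What this means for the level per cell was not tested.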
